A study of Mus musculus with 6 samples.

Results

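The 36 genes described here make, sense and move cholesterol and fatty acids. They were chosen by name, as the regulators of the SREBP transcription factors, the enzymes of the mevalonate, sterol and fatty acid pathways, and carriers of sterols. Of the 36, 35 were among the 11175 genes listed with expression values, and all 35 passed the filter on low values that left 10887 genes to be compared. Abca1, a cholesterol exporter, was not analysed here.

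The cells were CD8+ T cells, the killer cells among T lymphocytes, from the spleens of mice labelled as wild type (WT). They had been stimulated in culture for 48 h with antibodies against CD3, which passes on the signal of the antigen receptor, and CD28, a costimulatory receptor. RNA was sequenced from 3 libraries of cells treated with DOPAC, a catechol metabolite of dopamine, and from 3 libraries of control cells, which had the same stimulation. Whether replicates were separate animals or cultures is not stated in the labels, so every p-value reflects the spread between libraries alone, and that spread may be technical.

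Cells adjust the synthesis of these lipids through SREBP proteins, which are made as precursors held in the endoplasmic reticulum. When membrane sterols are low, the escort protein SCAP carries the precursor to the Golgi, where proteases release the part that enters the nucleus and turns on sterol and fatty acid genes. INSIG proteins hold SCAP back when sterols are plentiful, and T cells that start to divide are known to raise this programme to build membrane.

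Levels are given as FPKM, fragments scaled to transcript length and to the mapped fragments of a library, a scale on which levels of different genes can be compared. In control replicate 1, whose values moved with length as described in the next paragraph, such comparisons need not hold. Log2 fold changes are DOPAC minus control on the log2(FPKM + 1) scale, which understates changes of genes with low values. Each comes from limma's linear model over all 10887 genes, with 95% intervals and with p-values adjusted over all of these genes by Benjamini and Hochberg. A gene passed at an adjusted p under 0.05.

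The libraries differed in ways that the groups do not explain. FPKM summed to between 292755 and 316035 in the DOPAC libraries and to between 283818 and 310918 in the controls, and the number of reads behind them is unknown. Across genes, control replicate 1 correlated at 0.899 to 0.917 with the other 5 libraries, which correlated at 0.974 to 0.992 among themselves. Of the squared deviations from group means over all genes, 50.6% came from this library and 9.04% from DOPAC replicate 1. Its deviation moved with transcript length. Relative to the mean of the other 5 libraries its median log2 difference was 0.34 over genes of up to 2000 bp of exon and -0.67 over genes of more than 8000 bp. The 35 lipid genes had a median exon length of 4812 bp (1713 to 17074), against 4002 bp over all genes, and a median difference of -0.53 in control replicate 1, against -0.27 over all genes. With this length trend removed the median log2 fold change of the 35 genes was 0.063, against 0.006 over all genes. The log2 fold change of each lipid gene is therefore given with all libraries, without DOPAC replicate 1, without control replicate 1 and without both. Of the 35 genes, 5 changed sign without DOPAC replicate 1, 12 without control replicate 1 and 8 without both, 16 genes in all.

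The genes of the T cell receptor complex and of CD8 were high in all libraries, as the labelled cell type has them. The 5 T cell markers summed to 503 to 575 FPKM in the DOPAC libraries and 537 to 626 FPKM in the controls. Cd8a and Cd8b1 summed to 313 to 358 FPKM in the DOPAC libraries and 323 to 355 FPKM in the controls, and 0 of 3 CD4 T cell markers was listed. Transcripts of macrophages and fibroblasts were low, with smaller sums in the DOPAC libraries. The 4 listed of 9 macrophage markers summed to 7.50 to 21.9 FPKM with DOPAC and 34.5 to 45.7 FPKM in the controls, and the 3 listed of 4 fibroblast markers to 0.330 to 16.0 FPKM with DOPAC and 25.7 to 27.9 FPKM in the controls. The fibroblast collagen gene Col1a1 measured 0.160 FPKM in DOPAC replicate 1, against 9.12 and 9.16 FPKM in DOPAC replicates 2 and 3 and 14.0 to 16.2 FPKM in the controls. Of 5 erythroid markers the 2 listed summed to 0.280 to 3.02 FPKM with DOPAC and 2.72 to 10.4 FPKM in the controls. For B, natural killer and dendritic cells 1 of 6, 1 of 3 and 1 of 5 markers were listed. These were Cd79b, Eomes and Batf3, at no more than 5.09 FPKM, and 1 marker each does not show whether such cells were present. The part of other cell types in the values below was not tested. In bulk RNA a different share of other cells and a different RNA level per cell cannot be told apart.

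No lipid gene passed the test with DOPAC, and the 35 genes leaned upward by small amounts. With limma 0 of 35 had an adjusted p under 0.05, as had 0.0% of all genes, the lowest adjusted value being 0.801. Without adjustment, 2 genes were higher at p under 0.05 (5.71%), Scd1 and Fads2, against 2.73% of all genes, and 0 lower genes, against 1.46% of all genes. In 5 genes (14.3%), which were Scd1, Fads2, Elovl5, Sc5d and Insig2, every DOPAC library was higher than every control, against 12.4% of all genes, and in 0 genes every DOPAC library was lower, against 4.8% of all genes. A positive log2 fold change was measured for 27 of 35 genes (77.1%), against 62.1% of all genes, and the median was 0.13, against 0.066 over all genes.

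**Figure D1:**
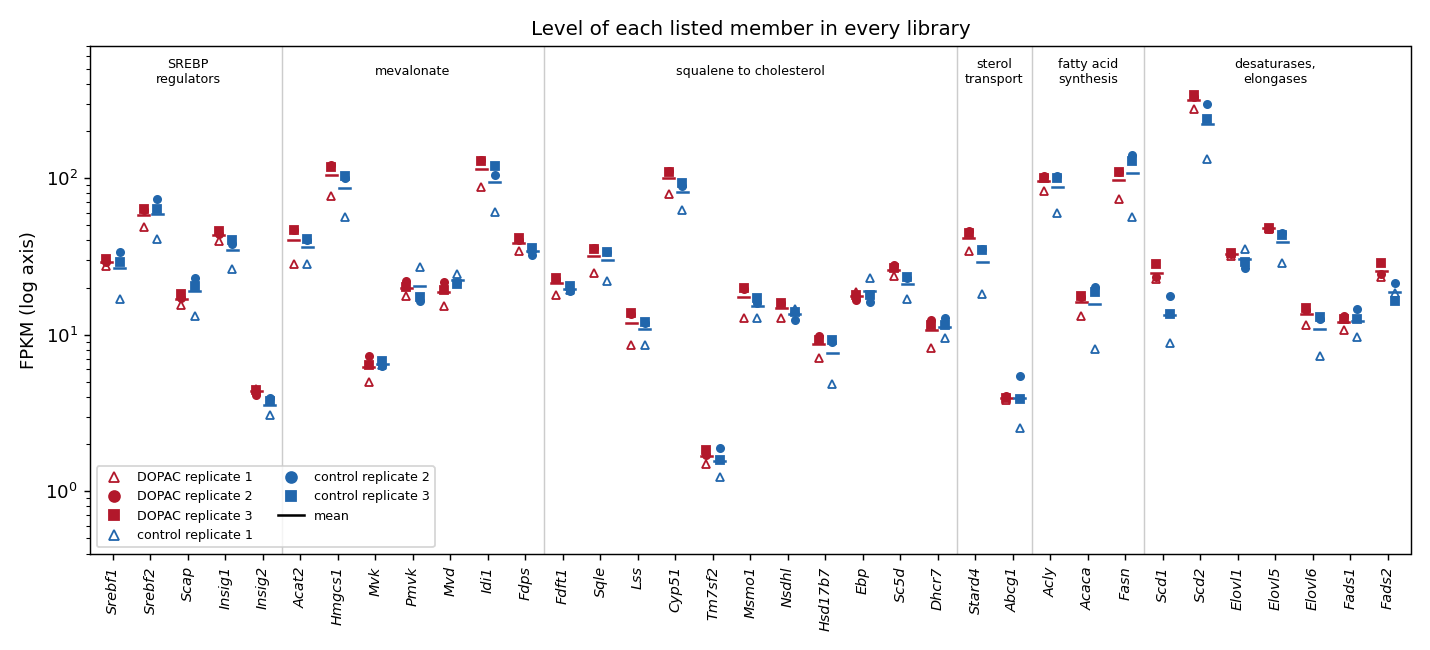
Level of each of the 35 listed genes in every library, in FPKM on a log axis, grouped by role. Red symbols are DOPAC libraries and blue symbols control libraries, open triangles mark replicate 1 of each group and short bars the group means. Scd2 had the highest levels, at 278 to 342 FPKM with DOPAC and 132 to 297 FPKM in the controls, and in most genes the open triangles lie below the filled symbols.

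The 2 genes with intervals above 0, Scd1 and Fads2, are fatty acid desaturases. Scd1, which puts the first double bond into saturated fatty acids, measured 22.8, 23.3 and 28.2 FPKM in the DOPAC libraries and 8.87, 17.6 and 13.6 FPKM in the controls. Every DOPAC library lay above every control, and the lowest control was replicate 1. The means were 24.8 ± 2.98 FPKM with DOPAC and 13.4 ± 4.38 FPKM in the controls (SD, n = 3 each). The log2 fold change was 0.88 (95% interval 0.30 to 1.46; limma unadjusted p = 0.00891, adjusted p = 0.801). It was 0.94 without DOPAC replicate 1, 0.64 without control replicate 1 and 0.69 without both, where the adjusted p was 0.217. Scd1 lies on chromosome 19 at 44394455 to 44407879 on the minus strand (GENCODE M21 on GRCm38, the build also called mm10).

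Scd2, a second enzyme of the same reaction, was the most abundant of the 35 genes. It lies beside Scd1 on chromosome 19 at 44293674 to 44306864, and no stretch of at least 300 bp at 97% identity was found between their transcripts, while shorter shared stretches were not looked for. Its levels were 278, 329.6 and 342 FPKM in the DOPAC libraries and 132, 297 and 241 FPKM in the controls, so that the groups overlapped in 1 pair of libraries, DOPAC replicate 1 and control replicate 2. The log2 fold change was 0.57 (95% interval -0.13 to 1.28), with 0.67 without DOPAC replicate 1, 0.24 without control replicate 1 and 0.33 without both. The ratio of Scd1 to Scd2, which cancels a deviation that both genes share in a library, was 0.0819, 0.0708 and 0.0825 with DOPAC and 0.0673, 0.0594 and 0.0566 in the controls. The ratio was higher in 3 of 3 DOPAC libraries, and an exact two-sided permutation test gave p = 0.1, the smallest that 3 against 3 libraries allow (0.2 adjusted over 4 such gene pairs, which were chosen after the values were seen).

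Fads2 and Fads1 are the desaturases that make polyunsaturated fatty acids, and their genes are also neighbours on chromosome 19, at 10062765 to 10101746 for Fads2 and 10182888 to 10196877 for Fads1. Fads2 measured 23.3, 24.6 and 28.7 FPKM with DOPAC and 18.4, 21.3 and 16.4 FPKM in the controls, without overlap. Its log2 fold change of 0.43 (95% interval 0.073 to 0.79; limma unadjusted p = 0.0249, adjusted p = 0.801) barely moved with the libraries left out, at 0.49 without DOPAC replicate 1, 0.42 without control replicate 1 and 0.48 without both. Fads1 measured 10.7, 13.2 and 12.6 FPKM with DOPAC and 9.73, 14.6 and 12.6 FPKM in the controls, a log2 fold change of -0.0067 (95% interval -0.43 to 0.41), 0.077 without DOPAC replicate 1, -0.15 without control replicate 1 and -0.070 without both. Within each library Fads2 was 2.19, 1.87 and 2.28 times Fads1 with DOPAC and 1.89, 1.46 and 1.30 times Fads1 in the controls. These ratios overlapped between the groups only through control replicate 1, at 1.89, and DOPAC replicate 2, at 1.87. The exact two-sided permutation test gave p = 0.2 (0.267 adjusted over the 4 pairs). Exon lengths of 3295 bp for Fads2 and 4812 bp for Fads1 differ, so the length trend of control replicate 1 need not cancel in this ratio.

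The 3 elongases lengthen fatty acid chains. Elovl5, which acts on polyunsaturated chains, measured 47.4, 47.7 and 48.4 FPKM with DOPAC and 28.9, 44.5 and 43.4 FPKM in the controls. All 3 DOPAC libraries lay within a narrow range above the controls, and the log2 fold change of 0.32 (95% interval -0.12 to 0.76) was also 0.32 without DOPAC replicate 1, but 0.12 without control replicate 1 and 0.13 without both. Elovl6, which extends palmitate, had 0.32 (95% interval -0.23 to 0.87), 0.42 without DOPAC replicate 1, 0.078 without control replicate 1 and 0.18 without both, and a near-identical stretch in Gm11295 makes its reads uncertain. Elovl1, which acts on very long chains, had 0.11 (95% interval -0.22 to 0.44), 0.13 without DOPAC replicate 1, 0.22 without control replicate 1 and 0.24 without both. Over the 7 desaturases and elongases the median was 0.32, with 0.42 without DOPAC replicate 1, 0.22 without control replicate 1 and 0.24 without both, and 6, 7, 6 and 6 of the 7 were positive.

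**Figure D2:**
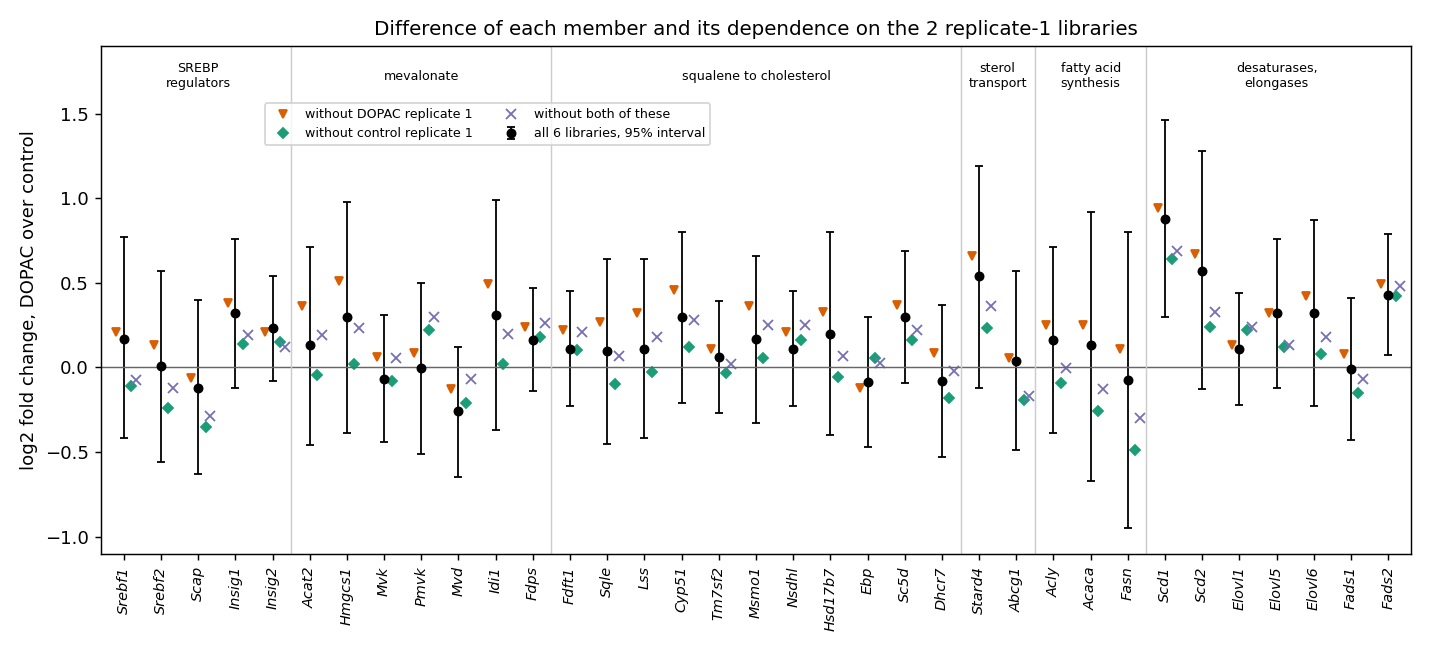
Log2 fold change of each of the 35 genes, DOPAC minus control on the log2(FPKM + 1) scale, with the 95% interval of limma's model with all 6 libraries and the values found without DOPAC replicate 1, without control replicate 1 and without both. Scd1 at 0.88 and Fads2 at 0.43 have intervals above 0. Fasn changes sides, at -0.076 with all libraries, 0.11 without DOPAC replicate 1 and -0.49 without control replicate 1.

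The enzymes that build the chain of fatty acids gave another picture. Fasn, the fatty acid synthase, measured 73.2, 109 and 109 FPKM with DOPAC and 56.2, 141 and 129 FPKM in the controls. DOPAC replicates 2 and 3 lay between the lowest control and the other 2 controls, and the replicate 1 library was the lowest in both groups. The log2 fold change was -0.076 (95% interval -0.95 to 0.80; limma unadjusted p = 0.841) with all libraries and 0.11 without DOPAC replicate 1. It was -0.49 without control replicate 1 (limma unadjusted p = 0.0405, adjusted p = 0.33) and -0.30 without both (limma unadjusted p = 0.00568, adjusted p = 0.217). Acaca, the acetyl-CoA carboxylase that supplies the synthase, measured 13.2, 17.3 and 17.8 FPKM with DOPAC and 8.10, 20.1 and 18.6 FPKM in the controls. The fitted value was 0.13 (95% interval -0.67 to 0.92), 0.25 without DOPAC replicate 1, -0.26 without control replicate 1 and -0.13 without both. A stretch of 6118 bp at 99.2% identity in Gm5182 makes the reads of Acaca uncertain. Acly, which makes the acetyl-CoA for both pathways from citrate, measured 83.3, 103 and 99.6 FPKM with DOPAC and 59.6, 103 and 99.7 FPKM in the controls, where replicates 2 and 3 of the groups were nearly equal. Its log2 fold change was 0.16 (95% interval -0.39 to 0.71), 0.25 without DOPAC replicate 1, -0.094 without control replicate 1 and -0.0011 without both. Of these 3 genes, 2 were positive with all libraries, 3 without DOPAC replicate 1, and 0 in each fit without control replicate 1.

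Synthesis of cholesterol starts with the mevalonate enzymes, and Hmgcs1, which condenses acetyl-CoA units to HMG-CoA, is among the best known SREBP targets. Its promoter is shown because it was the only 1 to hold TCACNCCAC, a strict spelling of the sterol regulatory element that SREBP binds, among the 27 of the 35 genes that matched RefSeq's promoter table (GRCm38.p6). The 250 bases before its start, chr13:119690101-119690350 on the plus strand, are given 5′ to 3′. Capitals mark the word TCACCCCAC, with its first base at -137 from the start, and the word CCAAT read on the opposite strand as ATTGG, at -237, -176 and -45.
Hmgcs1: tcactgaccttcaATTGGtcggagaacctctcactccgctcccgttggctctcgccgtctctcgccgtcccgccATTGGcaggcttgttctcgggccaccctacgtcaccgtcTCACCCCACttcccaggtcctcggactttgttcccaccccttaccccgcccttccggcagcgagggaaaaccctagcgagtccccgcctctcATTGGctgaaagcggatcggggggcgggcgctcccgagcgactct

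Words were searched on both strands of windows from 250 bases before to 50 bases after each start, and a gene counted once if any of its windows held the word. TCACNCCAC was found in 1 of 27 lipid genes (3.7%), against 1.44% of all genes in the table and 1.24% of its 32851 windows. CCAAT, the box bound by NF-Y, a partner of SREBP, was found in 22 of 27 (81.5%), against 41.1% of all genes and 37.4% of windows. GGGCGG, the box bound by Sp1, was found in 22 of 27 (81.5%), against 38.2% of all genes and 35.7% of windows. CACGTG, an E-box, was found in 6 of 27 (22.2%), against 8.09% of all genes and 7.15% of windows. Words can share letters where they meet, CAC between TCACNCCAC and CACGTG or GG between ATTGG and GGGCGG, and each was then counted. A match describes letters in a window and shows no binding. The 27025 genes of the table include genes without listed values in these cells, whereas all 27 lipid genes had them. The shares among the listed genes alone were not counted, so whether the differences are particular to lipid genes was not tested.

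Hmgcs1 measured 76.8, 121 and 118 FPKM with DOPAC and 56.4, 100.4 and 103 FPKM in the controls. In each group replicate 1 was far below replicates 2 and 3, at 0.644 times their mean with DOPAC and 0.555 times their mean in the controls. With all libraries the means were 105 ± 24.6 FPKM with DOPAC and 86.6 ± 26.2 FPKM in the controls (SD, n = 3 each), and the fitted log2 fold change was 0.30 (95% interval -0.39 to 0.98). It was 0.51 without DOPAC replicate 1, 0.018 without control replicate 1 and 0.23 without both (limma unadjusted p = 0.00852, adjusted p = 0.223). With all libraries the limma unadjusted p was 0.337. Gm48342 overlaps 12.1% of its exons on the other strand, and these libraries do not keep strand.

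Idi1, which turns the isoprenoid unit into its reactive form, followed the same order, with 87.9, 130.1 and 128 FPKM with DOPAC and 61.0, 106 and 119 FPKM in the controls. The log2 fold change of Idi1 was 0.31 (95% interval -0.37 to 0.99), 0.49 without DOPAC replicate 1, 0.019 without control replicate 1 and 0.20 without both, and 3 other gene models share near-identical stretches with it. Fdps, which joins isoprenoid units to farnesyl diphosphate, measured 34.4, 40.3 and 41.4 FPKM with DOPAC and 35.3, 32.2 and 35.7 FPKM in the controls, a log2 fold change of 0.16 (95% interval -0.14 to 0.47), 0.24 without DOPAC replicate 1, 0.18 without control replicate 1 and 0.26 without both. Gm43738 on the same strand overlaps 26.7% of the exons of Fdps.

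Mvd, the decarboxylase that ends the mevalonate steps, had the lowest log2 fold change of the 35 genes. It measured 15.2, 21.7 and 19.2 FPKM with DOPAC and 24.5, 21.8 and 21.2 FPKM in the controls, and here control replicate 1 was the highest library. The value was -0.26 (95% interval -0.65 to 0.12), -0.13 without DOPAC replicate 1, -0.21 without control replicate 1 and -0.070 without both. Acat2, which makes acetoacetyl-CoA, had 0.13, 0.36 without DOPAC replicate 1, -0.044 without control replicate 1 and 0.19 without both. The kinase gene Mvk had -0.068, 0.064 without DOPAC replicate 1, -0.079 without control replicate 1 and 0.053 without both. Pmvk, the next kinase, had -0.00078 with all libraries (limma unadjusted p = 0.997), and control replicate 1 was its highest library. Its value was 0.084 without DOPAC replicate 1, 0.22 without control replicate 1 and 0.30 without both (limma unadjusted p = 0.00928, adjusted p = 0.224). Acat2 shares 1441 bp at 98.33% identity with Acat3. Of the 7 mevalonate genes 4 were positive with all libraries, 6 without DOPAC replicate 1, 4 without control replicate 1 and 6 without both, with medians of 0.13, 0.24, 0.018 and 0.20.

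Among the 11 enzymes from squalene to cholesterol, Sc5d and Cyp51 had the largest values. Sc5d, a sterol desaturase of the late steps, measured 23.6, 27.8 and 26.6 FPKM with DOPAC and 16.9, 22.9 and 23.5 FPKM in the controls, and its groups were apart by a narrow margin. Its log2 fold change was 0.30 (95% interval -0.090 to 0.69), 0.37 without DOPAC replicate 1, 0.16 without control replicate 1 and 0.22 without both. Cyp51, the lanosterol demethylase, measured 79.0, 111 and 110.2 FPKM with DOPAC and 62.7, 89.3 and 92.7 FPKM in the controls. The groups overlapped only through DOPAC replicate 1. For Cyp51 the log2 fold change was 0.30 (95% interval -0.21 to 0.80; limma unadjusted p = 0.204) with all libraries. It was 0.46 without DOPAC replicate 1, 0.12 without control replicate 1 and 0.28 without both (limma unadjusted p = 0.00349, adjusted p = 0.213).

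Sqle, the oxygen-using epoxidase that acts on squalene, measured 24.7, 35.9 and 35.4 FPKM with DOPAC and 22.1, 33.9 and 34.0 FPKM in the controls. Its values outside replicate 1 were close to each other in both groups, and its log2 fold change of 0.096 (95% interval -0.45 to 0.64) was 0.27 without DOPAC replicate 1, -0.10 without control replicate 1 and 0.067 without both. Hsd17b7, a ketoreductase of the same pathway, had 0.20 (95% interval -0.40 to 0.80), 0.33 without DOPAC replicate 1, -0.059 without control replicate 1 and 0.070 without both. Fdft1, the squalene synthase, had 0.11, 0.22 without DOPAC replicate 1, 0.10 without control replicate 1 and 0.21 without both, and Nsdhl, a sterol dehydrogenase, had 0.11, 0.21, 0.16 and 0.25 in the same order. In that order Msmo1, a sterol oxidase, had 0.17, 0.36, 0.055 and 0.25. These 3 genes kept a positive sign in all 4 fits. Lss, the lanosterol synthase, had 0.11, 0.32, -0.028 and 0.18, and Tm7sf2, a sterol reductase, had 0.063, 0.11, -0.032 and 0.018. The reductase gene of the last step, Dhcr7, had -0.078, 0.083, -0.18 and -0.022, and the isomerase gene Ebp had -0.084, -0.12, 0.057 and 0.024, so that the sign of these 4 genes turned with the libraries. Over the 11 genes 9 were positive with all libraries, 10 without DOPAC replicate 1, 6 without control replicate 1 and 10 without both, with medians of 0.11, 0.27, 0.055 and 0.18. Fdft1 shares 1249 bp at 97.44% identity with Gm6781 and 18.3% of its exons with Ctsb on the other strand. Vps51 on the same strand overlaps 12.1% of the exons of Tm7sf2, whose levels of 1.24 to 1.88 FPKM were little above the filter.

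**Figure D3:**
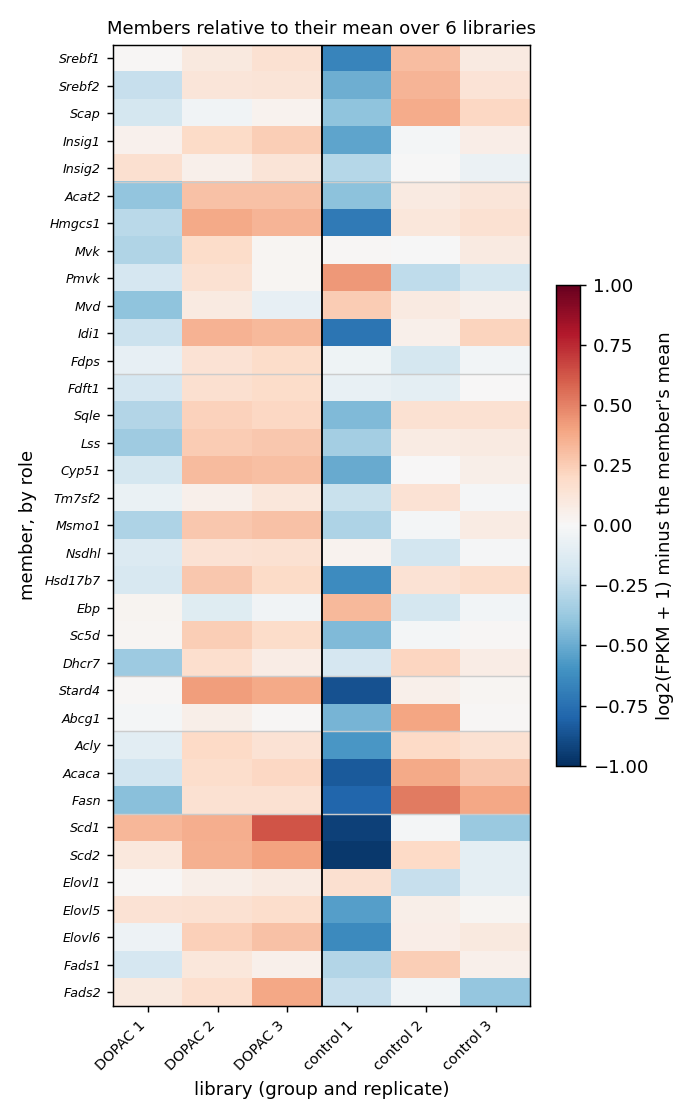
Difference of each of the 35 genes from its mean over all 6 libraries, in log2(FPKM + 1), with the DOPAC libraries in the left columns, the control libraries in the right columns and genes grouped by role. Most genes are below their mean in control replicate 1, where the median difference of the 35 from the mean of the other 5 libraries is -0.53, and most enzymes of the mevalonate and sterol steps are below their mean in DOPAC replicate 1 too.

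The regulators of SREBP gave values on both sides of 0. Srebf2, the SREBP gene tied most to sterol synthesis, measured 49.1, 62.9 and 63.3 FPKM with DOPAC and 40.9, 73.7 and 63.9 FPKM in the controls. Its log2 fold change was 0.0068 (95% interval -0.56 to 0.57), 0.13 without DOPAC replicate 1, -0.24 without control replicate 1 and -0.12 without both. Srebf1, tied more to fatty acid synthesis, measured 27.5, 29.1 and 30.3 FPKM with DOPAC and 16.9, 33.9 and 28.9 FPKM in the controls. The DOPAC libraries lay inside the range of the controls, and the log2 fold change was 0.17 (95% interval -0.42 to 0.77), 0.21 without DOPAC replicate 1, -0.11 without control replicate 1 and -0.075 without both. The exact two-sided permutation test of the ratio of Srebf1 to Srebf2, which was 0.560, 0.463 and 0.479 with DOPAC and 0.413, 0.461 and 0.453 in the controls, gave p = 0.1, the smallest possible (0.2 adjusted over the 4 pairs). The groups were apart only by 0.463 against 0.461, and the highest DOPAC ratio and the lowest control ratio were both in replicate 1. Exon lengths of 5634 bp for Srebf1 and 7184 bp for Srebf2 differ, so the length trend of control replicate 1 need not cancel in this ratio.

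Scap, the escort protein gene, measured 15.5, 17.2 and 18.1 FPKM with DOPAC and 13.1, 23.2 and 20.5 FPKM in the controls, a log2 fold change of -0.12 (95% interval -0.63 to 0.40), or -0.060 without DOPAC replicate 1. Without control replicate 1 all 3 DOPAC libraries lay below the remaining controls and the value was -0.35 (limma unadjusted p = 0.00992, adjusted p = 0.295), against -0.29 without both. An antisense gene overlaps 13.2% of its exons. Insig1, itself an SREBP target that restrains the pathway, measured 39.7, 44.0 and 45.7 FPKM with DOPAC and 26.3, 37.9 and 40.2 FPKM in the controls. The overlap came from DOPAC replicate 1 and control replicate 3, which differed by little, and the log2 fold change was 0.32 (95% interval -0.12 to 0.76), 0.38 without DOPAC replicate 1, 0.14 without control replicate 1 and 0.19 without both. Insig2, its relative with the same function, measured 4.53, 4.12 and 4.41 FPKM with DOPAC and 3.06, 3.92 and 3.75 FPKM in the controls, without overlap, and the log2 fold change was 0.23 (95% interval -0.083 to 0.54), or 0.21 without DOPAC replicate 1, 0.15 without control replicate 1 and 0.12 without both. The ratio of Insig1 to Insig2 was 8.76, 10.7 and 10.3 with DOPAC and 8.62, 9.67 and 10.7 in the controls (exact two-sided permutation p = 0.8, also 0.8 adjusted over the 4 pairs).

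Of the sterol carriers, Stard4, a soluble protein that moves cholesterol between membranes, measured 34.3, 45.8 and 44.5 FPKM with DOPAC and 18.1, 35.2 and 34.6 FPKM in the controls. DOPAC replicates 2 and 3 lay above all controls, and DOPAC replicate 1 lay just under the 2 higher ones. The means were 41.5 ± 6.29 FPKM with DOPAC and 29.3 ± 9.69 FPKM in the controls (SD, n = 3 each), with a log2 fold change of 0.54 (95% interval -0.12 to 1.19), 0.66 without DOPAC replicate 1, 0.23 without control replicate 1 and 0.36 without both (limma unadjusted p = 0.00122, adjusted p = 0.181). Abcg1, an exporter of cholesterol that is switched on by sterol-sensing LXR receptors rather than SREBP, measured 3.81, 4.07 and 3.92 FPKM with DOPAC and 2.53, 5.41 and 3.90 FPKM in the controls. Its log2 fold change was 0.037 (95% interval -0.49 to 0.57), 0.055 without DOPAC replicate 1, -0.19 without control replicate 1 and -0.17 without both.

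DOPAC replicate 1 was low in most of these genes. It was the lowest of the 3 DOPAC libraries in 33 of the 35 genes (94.3%), all but Insig2 and Ebp, against 42.6% of all genes. Relative to DOPAC replicates 2 and 3 the median log2 difference of the 35 genes was -0.29, against -0.009 over all genes. The summed level of the 35 genes was 1249, 1599 and 1609 FPKM in the DOPAC libraries and 919.9, 1479.5 and 1409.9 FPKM in the controls. Control replicate 1 was the lowest control in 26 of the 35 genes (74.3%), against 65.4% of all genes. By role, the sums in the first library of each group were low for the mevalonate enzymes, at 265, 389 and 379 FPKM with DOPAC and 239, 323 and 344 FPKM in the controls. For the desaturases and elongases they were 425, 485 and 508 FPKM with DOPAC and 240.3, 434 and 369 FPKM in the controls.

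**Figure D4:**
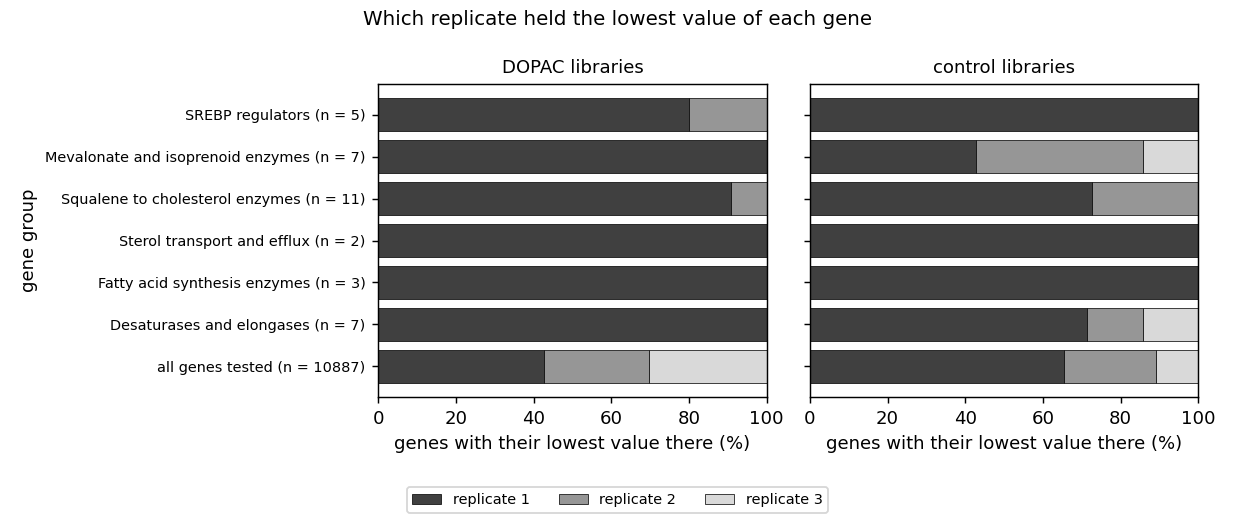
Share of genes, in percent, in which replicate 1, 2 or 3 held the lowest value of its group, with the DOPAC libraries in the left panel and the controls in the right one. Bars stand for the role groups of the 35 lipid genes and, at the bottom, all 10887 genes. Among DOPAC libraries replicate 1 fills 80.0% to 100% of each role group's bar, against 42.6% for all genes, and among controls 42.9% to 100%, against 65.4% for all genes.

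What leaving out these libraries did to the 35 genes depended on which one was left out. Without DOPAC replicate 1, 0 of 35 genes passed with limma, as did 0.0% of all genes, and 2 genes, Scd1 and Fads2, were higher at an unadjusted p under 0.05, against 1.13% of all genes. DOPAC replicates 2 and 3 both lay above all 3 controls in 20 genes (57.1%), against 18.3% of all genes, and 32 genes (91.4%) were positive, against 60.8% of all genes, the exceptions being Scap, Mvd and Ebp. The median was 0.25, against 0.068 over all genes. DOPAC replicate 1 was the lowest DOPAC library in 94.3% of the 35 genes, against 42.6% of all genes. Leaving it out therefore by itself raises the values of the 35 genes more than those of all genes.

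Without control replicate 1, 0 of 35 genes passed, against 0.0184% of all genes. Of the 35, 3 (8.57%), Scd1, Fads2 and Elovl1, were higher at an unadjusted p under 0.05, against 5.57% of all genes, and 2 (5.71%), Fasn and Scap, were lower, against 8.89% of all genes. There were 19 positive genes (54.3%), against 47.3% of all genes, and the median was 0.019, against -0.011 over all genes.

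With both replicate 1 libraries left out, which leaves 2 libraries in each group, 0 of 35 genes again passed with limma, against 0.0184% of all genes, the lowest adjusted value among the 35 being 0.181. Without adjustment 18 of 35 (51.4%) were higher at p under 0.05, against 5.82% of all genes, and 2 (5.71%), Fasn and Scap, were lower, against 10.6% of all genes. The 18 were Scd1, Scd2, Fads2, Elovl1, Elovl6, Stard4, Insig1, 5 of the 7 mevalonate genes (Acat2, Hmgcs1, Pmvk, Idi1 and Fdps) and 6 of the 11 genes from squalene to cholesterol (Fdft1, Lss, Cyp51, Msmo1, Nsdhl and Sc5d). A positive value was found for 25 (71.4%), against 45.4% of all genes, and the median was 0.18, against -0.019 over all genes. The genes of a pathway move together within a library, so the 18 are not 18 separate observations. As above, leaving out DOPAC replicate 1 by itself raises the 35 genes more than all genes.

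Both groups carry replicate numbers, and each DOPAC library was also set against the control of its number. With numbers 1, 2 and 3 in order, 24, 24 and 25 of the 35 genes were higher with DOPAC (68.6%, 68.6% and 71.4%), against 71.1%, 49.0% and 42.6% of all genes. The median log2 differences were 0.33, 0.17 and 0.17 over the 35 genes, against 0.27, -0.0048 and -0.032 over all genes. With the replicate number as a block in limma, 4 of the 35 (11.4%), Scd1, Stard4, Scd2 and Fads2, were higher at an unadjusted p under 0.05, against 2.55% of all genes, and 0 passed, as did 0.0% of all genes (lowest adjusted p of the 35 genes 0.698).

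The rest of the pathway was read from 4 further lists, and 0 of their genes passed with limma. For all 4 lists, the positive share of all genes to set beside the counts was 62.1% with all libraries and 60.8% without DOPAC replicate 1. It was 47.3% without control replicate 1 and 45.4% without both. The first list held genes that process SREBP or sense sterols, and also the NF-Y subunits and Sp1. Of its 15 tested genes 14 were positive with all libraries (all genes 62.1%), with a median of 0.10, and 14 without DOPAC replicate 1, with a median of 0.13. Without control replicate 1 the positive genes were 5 (all genes 47.3%), with a median of -0.031, and without both replicate 1 libraries 6 were positive, with a median of -0.050. Mbtps2, the second protease that releases SREBP, measured 4.54, 5.10 and 5.20 FPKM with DOPAC and 2.00, 4.20 and 4.35 FPKM in the controls. Its log2 fold change was 0.44 (limma unadjusted p = 0.11), 0.49 without DOPAC replicate 1 and 0.17 without control replicate 1. Nfyb, a subunit of NF-Y, had 0.37 (limma unadjusted p = 0.0651), 0.35 without DOPAC replicate 1 and 0.21 without control replicate 1. Of 16 other genes listed with the sterol and isoprenoid enzymes 13 were positive, with a median of 0.13. Without DOPAC replicate 1 the positive genes were 13, with a median of 0.10, and without control replicate 1 they were 12, with a median of 0.076. Ggps1, which makes geranylgeranyl diphosphate, had 0.31, also 0.31 without DOPAC replicate 1, and 0.17 without control replicate 1. Hsd17b12, a reductase of fatty acid elongation that was listed here for its family, had 0.26, 0.31 without DOPAC replicate 1 and 0.23 without control replicate 1.

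Of 18 tested genes of sterol transport, uptake and LXR response, 9 were positive and 9 negative with all libraries, with a median of 0.0042, and also without DOPAC replicate 1, with a median of 0.020. That balance rested on control replicate 1, without which 4 were positive and 14 negative, with a median of -0.15, and without both replicate 1 libraries 5 were positive and 13 negative, with a median of -0.12. Soat1, which stores cholesterol as esters, measured 5.89, 6.14 and 6.41 FPKM with DOPAC and 2.89, 5.06 and 4.32 FPKM in the controls. The log2 fold change of Soat1 was 0.51 (95% interval 0.072 to 0.95; limma unadjusted p = 0.0286). Without DOPAC replicate 1 it was 0.54, without control replicate 1 0.33 and without both 0.36. Apoe, a lipid-carrying apolipoprotein that is also on the list of macrophage markers above, measured 8.88, 2.73 and 2.69 FPKM with DOPAC and 21.2, 10.5 and 8.05 FPKM in the controls. The log2 fold change of Apoe was -1.36 (95% interval -2.51 to -0.21; limma unadjusted p = 0.0266). Without DOPAC replicate 1 it was -1.83, without control replicate 1 -0.99 and without both -1.46. Of 29 further genes of fatty acid synthesis and use, 22 were positive, with a median of 0.081. Without DOPAC replicate 1 the positive genes were 18, with a median of 0.07, and without control replicate 1 they were 17, with a median of 0.041. Among the 29 Lpin1, a phosphatidate phosphatase, had 0.41, 0.50 without DOPAC replicate 1 and 0.27 without control replicate 1. Me2, a mitochondrial malic enzyme, had 0.38, 0.37 without DOPAC replicate 1 and 0.22 without control replicate 1.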

How the data were processed

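FPKM values per gene and library were deposited by the authors, per the file headers, and all 6 columns were used. The authors' own log2 fold changes and p-values stand in the deposited table, per the file headers. Its lowest adjusted p was 0.801. The submitters' processing notes name cutadapt 1.9, HISAT2 2.2.1 and the genome build mm10. RNA came from TRIzol and libraries were made, per the labels' protocols, with SMART-Seq HT and Nextera XT kits, which do not mark strand. How FPKM were estimated, and with which annotation, is not given in the sources used here. The number of reads per library is unknown. DOPAC replicate 1 was assigned by its library name and treatment label, since its title misspells the treatment.

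Values were transformed to log2(FPKM + 1), and 288 genes with a mean under 1 FPKM over the 6 libraries were left out. R 4.3.3 with limma 3.58.1 fitted DOPAC against control with a mean-variance trend (6.75 total degrees of freedom). The fit was tested on simulated data with independent noise in each gene and library. Those data held no deviation of a whole library, such as that of control replicate 1, so the test does not cover it. Positions and lengths came from GENCODE M21 on GRCm38, near-identical transcripts from minimap2 2.31, promoters from RefSeq's table, figures from Python 3.11.15 with matplotlib 3.10.9.

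Alternatives left out each library, both replicate 1 libraries, or the filter on low values, raised that filter to 5 FPKM, set the pseudocount to 0.1 or 0.5, equalised medians or quantiles, weighted the libraries, removed the length trend, or added the replicate block. Named genes were, in each role group, the 3 with the smallest p, every gene whose groups did not overlap, 14 fixed genes and the 2 with the smallest p of each further list; others named were chosen after their values were seen. Members, lists and alternatives were chosen with earlier results of these data known, including the position of both replicate 1 libraries. Deviations from the group means correlated between same-numbered libraries at 0.34, 0.16 and 0.28, each above 0.1, and libraries of different numbers were not compared in this way. The numbers were therefore used as pairing in the replicate block and in the comparison by number, although no label ties them to an animal or a day. The main fit and the exact permutation tests took the libraries as unpaired.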

Additional observations from a re-analysis of the deposited data

How the results depend on the processing

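The count of lipid genes past the threshold was 0 in all 17 alternatives, of 35 tested, or of 32 with the filter at 5 FPKM. Over all genes the count was 0 with all libraries, 2 with array weights, 2 without both replicate 1 libraries, and 0 to 2 with 1 library left out at a time, the 2 found without control replicate 1. With the replicate block it was 0 (lowest adjusted p 0.439), as it was with the block and without control replicate 1, and the pairing changed no other call. The median of the 35 genes was 0.13 with all libraries and 0.019 to 0.25 with 1 left out, lowest without control replicate 1 and highest without DOPAC replicate 1. Its lead over all genes depended on DOPAC replicates 2 and 3. It was 0.074 without DOPAC replicate 2, against 0.067 over all genes, and 0.063 without DOPAC replicate 3, against 0.072. Without control replicate 2 it was 0.21, against 0.115, and without control replicate 3 0.22, against 0.116.

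Of 506 values of 30 named genes, 470 kept their direction and their side of the threshold and 36 changed sign, in 9 genes. The cause was not tested. With array weights Srebf1 had -0.10, Srebf2 -0.17, Abcg1 -0.23, Acly -0.0020 and Acaca -0.14. With the length trend removed Srebf2 had -0.13, Sqle -0.013, Abcg1 -0.10 and Acaca -0.099. With quantile normalization Srebf2 had -0.010 and Abcg1 -0.017, and with equal medians -0.052 and -0.022. Without both replicate 1 libraries, and equally without control replicate 1 with the replicate block, Srebf1 had -0.075, Srebf2 -0.12, Abcg1 -0.17, Acly -0.0011 and Acaca -0.13. With 1 library left out at a time the ranges were -0.11 to 0.37 for Srebf1, -0.24 to 0.18 for Srebf2, -0.35 to 0.040 for Scap, -0.10 to 0.27 for Sqle, -0.059 to 0.34 for Hsd17b7, -0.19 to 0.25 for Abcg1, -0.094 to 0.30 for Acly, -0.26 to 0.35 for Acaca and -0.49 to 0.16 for Fasn.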
